A study of Mus musculus with 17 samples.

Results

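Metabotropic glutamate receptors are G protein-coupled receptors that let glutamate tune synaptic strength over a slower time than ion channel receptors. They fall into group I, which couples through Gq to phospholipase C and calcium release and sits mostly on postsynaptic membranes, and groups II and III, which couple through Gi/o to lower cyclic AMP and often restrain transmitter release from presynaptic terminals. The genes described here are Grm5 (ENSMUSG00000049583) of group I, Grm2 (ENSMUSG00000023192) and Grm3 (ENSMUSG00000003974) of group II, and Grm4 (ENSMUSG00000063239), Grm7 (ENSMUSG00000056755) and Grm8 (ENSMUSG00000024211) of group III. They were found by symbol, 6 of the 78298 genes in each library, and all 6 passed the filter on low values. Glutamate reaching brainstem nuclei such as the locus coeruleus, the main noradrenergic nucleus, acts on these receptors as well as on ion channels.

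The study dosed male C57BL/6 mice once daily by oral gavage with 20 mg/kg of vindeburnol (5 libraries) or of its derivative VB-127 (6 libraries) for 5 days, and compared them with untreated controls (6 libraries). Tissue labelled locus coeruleus was taken 24 hours after treatment and its poly(A) RNA was sequenced. Vindeburnol is a synthetic compound related to vincamine-type alkaloids, and the series title names the search for its molecular target. No group is labelled as gavaged without a compound, so an effect of a compound and an effect of gavage cannot be told apart. Whether every library is from its own mouse is not stated in the labels, and p-values then measure only the spread between these samples, which may be technical. No batch is labelled.

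Values are TPM, a length-corrected measure of transcript abundance that sums to the same total in every library. TPM keeps no read depth, so depth is unknown and precision is read from the spread between libraries. The labelled tissue was checked against its markers. Over the 17 libraries Dbh, which makes noradrenaline, had a median of 1.08 TPM and the noradrenaline transporter gene Slc6a2 a median of 0.300 TPM, and the noradrenergic transcription factor gene Phox2a a median of 0. Control replicates 1 and 6 stood apart, with 18.9 and 12.3 TPM of Dbh. The pan-neuronal genes Snap25 and Syp had medians of 881 and 799.8 TPM, and the astrocyte glutamate transporter gene Slc1a2 a median of 129 TPM. Of the 10 noradrenergic markers, Hand1 was listed at 0 in every library, while Th, Ddc and Slc18a2, which other monoamine neurons also use, had medians of 74.5, 105.9 and 38.2 TPM. The serotonin synthesis gene Tph2 ranged from 1.08 to 129 TPM and the dopamine transporter gene Slc6a3 from 1.04 to 124 TPM across libraries. The markers that set noradrenergic neurons apart were thus low in most libraries, and the receptor levels below are those of a mixed tissue. In such bulk samples, fewer cells of a type and less RNA per cell cannot be told apart.

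RefSeq (GRCm38.p6, which differs from the GRCm39 build named for the files) gave promoter sequence for 4 of the 6 genes, Grm2, Grm3, Grm7 and Grm8. The 250 bases before the first listed start of each are shown to give the sequence before the starts of the receptor genes whose levels are described here. Grm7 has 2 listed starts and Grm8 has 3. They are on the gene's strand, 5′ to 3′, and capitals mark the GC box GGGCGG or its reverse complement CCGCCC. Grm2 lies at chr9:106656110-106656359 on the minus strand, Grm3 at chr5:9725353-9725602 on the minus strand, Grm7 at chr6:110645262-110645511 on the plus strand and Grm8 at chr6:28135147-28135396 on the minus strand.
Grm2: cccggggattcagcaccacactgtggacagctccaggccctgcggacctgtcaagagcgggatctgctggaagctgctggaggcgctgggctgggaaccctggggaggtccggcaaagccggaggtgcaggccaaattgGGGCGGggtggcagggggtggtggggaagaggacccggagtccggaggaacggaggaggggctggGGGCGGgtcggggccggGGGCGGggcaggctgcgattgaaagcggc
Grm3: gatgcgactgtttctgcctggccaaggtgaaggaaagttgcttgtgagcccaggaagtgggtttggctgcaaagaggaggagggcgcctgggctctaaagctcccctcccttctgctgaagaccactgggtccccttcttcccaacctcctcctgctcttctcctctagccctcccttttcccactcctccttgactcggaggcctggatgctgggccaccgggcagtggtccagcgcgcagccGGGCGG
Grm7: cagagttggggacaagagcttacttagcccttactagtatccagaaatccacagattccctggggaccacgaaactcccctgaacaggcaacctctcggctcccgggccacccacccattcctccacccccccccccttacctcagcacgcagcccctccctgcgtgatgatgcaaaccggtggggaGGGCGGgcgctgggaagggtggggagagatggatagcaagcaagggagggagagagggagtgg
Grm8: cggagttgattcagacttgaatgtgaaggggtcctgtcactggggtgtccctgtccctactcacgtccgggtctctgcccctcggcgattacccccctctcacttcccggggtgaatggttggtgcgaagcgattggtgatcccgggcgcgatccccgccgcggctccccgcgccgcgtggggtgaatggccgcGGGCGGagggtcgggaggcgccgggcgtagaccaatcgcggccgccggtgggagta
Grm2 held 3 GC boxes in this window and the other 3 genes 1 each. Over 32851 RefSeq promoters of the same length, 32.7% held at least 1. The share of G and C letters was 71.2% for Grm2, 62.4% for Grm3, 62% for Grm7 and 68.4% for Grm8. These windows were thus richer in the letters of the GC box than all promoters, with a median of 52.4%. The TATA box TATAAA and the cyclic AMP response core TGACG, searched on both strands, matched none of these 4 windows, against 12.4% and 17.8% of all promoters. The second Grm7 start had 1 GC box. The second Grm8 start had 1 TGACG and no GC box, and the third had neither. The Grm8 window had 29 CpG dinucleotides, Grm2 16, and Grm3 and Grm7 8 each, with a median of 6 over all promoters. These matches describe letters and not sites in use.

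Grm3, Grm5 and Grm4 had the highest levels and Grm2 the lowest. Over all 17 libraries Grm3 averaged 17.6 ± 3.22 TPM, Grm5 17.04 ± 5.05 TPM, Grm4 16.8 ± 3.05 TPM and Grm7 14.8 ± 3.25 TPM (SD, n = 17). Grm8 averaged 8.42 ± 1.67 TPM and Grm2 4.99 ± 1.21 TPM (SD, n = 17). Neighbours in this order were compared within each library by a two-sided exact permutation test of paired signs, adjusted over 5 comparisons. Grm3 lay above Grm5 in 11 of 17 libraries and Grm5 above Grm4 in 9 of 17, and neither pair differed beyond its spread (adjusted p = 0.371 and 0.865, exact permutation test). Grm4 lay above Grm7 in 14 of 17 libraries (adjusted p = 0.00221, exact permutation test). The steps below Grm7 were wider, with mean differences in log2(TPM + 1) of 0.74 for Grm7 over Grm8 and 0.66 for Grm8 over Grm2. The added 1 TPM narrows such differences. Grm7 exceeded Grm8 in 17 of 17 libraries and Grm8 exceeded Grm2 in 16 of 17 (adjusted p = 7.63e-05 for both, exact permutation test). In each group Grm7, Grm8 and Grm2 held the last 3 places, in that order. The first place went to Grm4 after vindeburnol, Grm3 after VB-127 and Grm5 in controls, which lie within the spread just given. Grm6, a group III gene known for its role in retinal ON bipolar cells, was listed at 0 in every library.

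**Figure D1:**
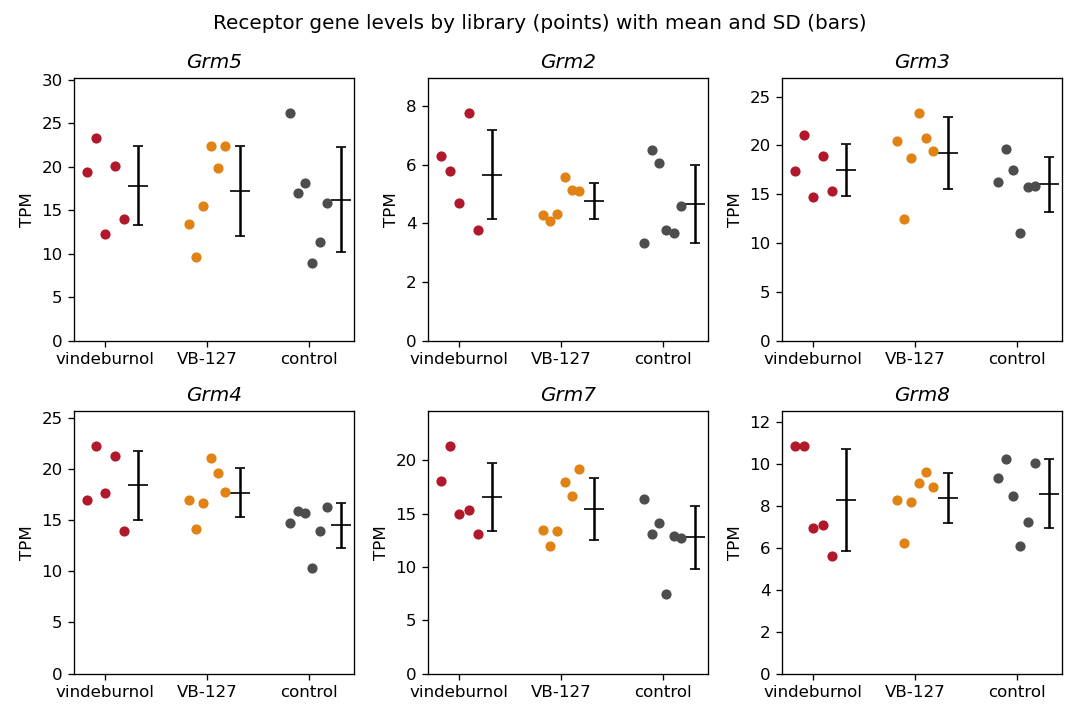
TPM (vertical axis, starting at 0) of each of the 6 receptor genes in every library, with points for the 5 vindeburnol, 6 VB-127 and 6 control libraries and bars for the mean and SD of each group. The groups overlap for all 6 genes, and the lowest value of every gene but Grm8 is in a control library, as for Grm4 and Grm7 at 10.3 and 7.45 TPM.

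Grm5 encodes mGlu5, the postsynaptic group I receptor that Homer scaffolds tie to the NMDA receptor complex and that astrocytes also use early in life. It was at 19.4, 23.3, 12.3, 20.1 and 13.99 TPM in vindeburnol replicates 1 to 5. After VB-127 it ranged from 9.66 to 22.4 TPM with a median of 17.7, and in controls from 8.95 to 26.2 TPM with a median of 16.4. The control range enclosed every treated library. Grm5 had the widest relative spread of the 6 genes, with a coefficient of variation of 29.6% over all libraries. Its highest value, 26.2 TPM, came from control replicate 1, the library with the highest Dbh (18.9 TPM), where Grm5 took 30.4% of the summed TPM of the 6 genes. Control replicate 6, the other library with high Dbh (12.3 TPM), had Grm5 at 15.8 TPM and 20.95% of that sum.

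Grm2 and Grm3 encode the group II receptors. Grm2, mGlu2, is a presynaptic autoreceptor that limits glutamate release. It was at 6.29, 5.79, 4.71, 7.78 and 3.76 TPM in the vindeburnol libraries. After VB-127 it ranged from 4.08 to 5.60 TPM with a median of 4.71, inside the control range of 3.32 to 6.49 TPM with a median of 4.18. One vindeburnol library, replicate 4, exceeded every library of the other groups. Grm3, mGlu3, is found on astrocytes as well as neurons. It was at 17.3, 21.1, 14.7, 18.9 and 15.3 TPM after vindeburnol, from 12.4 to 23.4 TPM with a median of 19.9 after VB-127, and from 11.02 to 19.6 TPM with a median of 16.1 in controls. Of the VB-127 libraries, 5 of 6 lay above the control mean, and the remaining one, replicate 2, was the lowest of its group.

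Grm4, Grm7 and Grm8 encode the group III receptors, which restrain release at presynaptic terminals; mGlu4 is best known from the parallel fibres of cerebellar granule cells and mGlu7 from active zones, where it responds to high glutamate. Grm4 was at 16.9, 22.3, 17.6, 21.2 and 13.95 TPM after vindeburnol. It ranged from 14.2 to 21.1 TPM with a median of 17.3 after VB-127, and from 10.3 to 16.3 TPM with a median of 15.2 in controls. In 4 of 5 vindeburnol libraries and 5 of 6 VB-127 libraries Grm4 was above the highest control, while the lowest treated library of each compound fell inside the control range. The mean log2 level of 7 cerebellar granule cell markers was 2.76 to 3.44 after vindeburnol, 2.68 to 3.01 after VB-127 and 2.53 to 3.15 in controls, and their defining gene Gabra6 reached at most 2.38 TPM, in vindeburnol replicate 3; their part in the Grm4 values was not tested. That of 7 Purkinje cell markers was 3.21 to 4.20 after vindeburnol, 2.92 to 3.49 after VB-127 and 2.76 to 3.39 in controls. Grm7 was at 18.02, 21.4, 14.98, 15.3 and 13.1 TPM after vindeburnol, from 11.99 to 19.2 TPM with a median of 15.1 after VB-127, and from 7.45 to 16.4 TPM with a median of 12.95 in controls. All 5 vindeburnol libraries lay above the control mean of 12.8 TPM, and 5 of 6 VB-127 libraries did. Grm8 was at 10.8, 10.9, 6.93, 7.07 and 5.61 TPM after vindeburnol, from 6.22 to 9.61 TPM with a median of 8.61 after VB-127, and from 6.11 to 10.3 TPM with a median of 8.90 in controls. Vindeburnol split into 2 high and 3 low libraries for Grm8, on either side of the control median.

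The first comparison set vindeburnol against untreated controls. None of the 6 receptor genes passed the test, and 5 of 6 were higher in value. The test was limma on log2(TPM + 1), a scale with a pseudocount of 1 that understates the change of low genes, with Benjamini-Hochberg adjustment over the 16153 genes that reached 1 TPM in at least 5 libraries. It called 0 of 16153 genes (0% called), with 1319 genes, or 8.17%, at an unadjusted p under 0.05, and the smallest adjusted p of any gene was 0.0641. Grm7 had the widest gap. In the 5 vindeburnol libraries it averaged 16.6 ± 3.21 TPM (SD), and in the 6 control libraries 12.8 ± 2.94 TPM, a log2 difference of 0.37 (SE 0.17, 95% interval 0.01 to 0.72, limma adjusted p 0.595). Grm4 was at 18.4 ± 3.38 TPM after vindeburnol against 14.5 ± 2.22 TPM in controls, a log2 difference of 0.32 (SE 0.14, 95% interval 0.04 to 0.61, limma adjusted p 0.555). These were the 2 of 6 genes with an unadjusted p under 0.05, where 6.95% of all tested genes were higher and 1.22% lower at that level. Single-gene exact permutation tests over the samples gave an unadjusted p of 0.0628 for Grm7 and 0.0519 for Grm4 (two-sided). With array weights, which give libraries that vary more less weight, Grm7 was at 0.19 and Grm4 at 0.20 (unadjusted limma p 0.237 and 0.146), and without control replicate 4 Grm7 was at 0.23. Of the Purkinje cell markers, 7 of 7 were above 0 after vindeburnol against controls, with a median log2 difference of 0.30 and 0 called, and Pcp2 reached 20.3 TPM in vindeburnol replicate 3. After VB-127 against controls 6 of 7 were above 0, with a median of 0.07. Of all tested genes, 69.7% were above 0 after vindeburnol and 79.4% after VB-127, with medians of 0.08 and 0.11. Other marker lists ran in both directions. For vindeburnol against controls, medians were -0.62 (glutamatergic), -0.56 (noradrenergic), -0.45 (serotonergic), -0.29 (endothelium), 0.17 (oligodendrocyte precursors) and 0.14 (granule cells), with the rest between. For VB-127 they were -0.50, -0.08, -0.39, 0.17, 0.21 and 0.16 in that order. The dopaminergic and oligodendrocyte lists lay higher after VB-127, with medians of 0.35 and 0.24. Of their genes, 7 of 7 and 7 of 8 were above 0. Dbh averaged 0.41 ± 0.74 TPM after vindeburnol, 0.93 ± 0.91 after VB-127 and 6.08 ± 7.70 in controls (SD). The part of these cell types in the receptor values was not tested.

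The other 4 genes differed less from controls after vindeburnol. Grm2 was at 5.66 ± 1.53 TPM against 4.65 ± 1.34 TPM in controls, a log2 difference of 0.24 (95% interval -0.12 to 0.60, limma adjusted p 0.724). Grm5 and Grm3 had log2 differences of 0.17 (95% interval -0.34 to 0.67) and 0.13 (95% interval -0.19 to 0.44), with limma adjusted p of 0.885 and 0.853. Single libraries moved these values: Grm2 was at 0.13 without vindeburnol replicate 4. Grm5 and Grm3 were at 0.06 and 0.06 without vindeburnol replicate 2 and at 0.02 and 0.03 without control replicate 4. Grm5 was also at 0.28 without vindeburnol replicate 3, 0.31 without control replicate 1 and 0.08 without control replicate 5. Grm8 was the one gene lower in value, at 8.27 ± 2.44 TPM against 8.57 ± 1.65 TPM in controls, a log2 difference of -0.07 (95% interval -0.42 to 0.28, limma adjusted p 0.944) that turned to 0.04 without vindeburnol replicate 5. The median of the 6 differences was 0.20, beside a median of 0.08 over all tested genes, of which 69.7% were above 0. Groups overlapped for all 6 genes, as for all but 0.52% of the genes tested.

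VB-127 was then set against the same controls, so the comparisons of both compounds with controls share those 6 libraries. None of the 6 receptor genes passed the test. Limma called 0.00619% of 16153 genes, which is 1 gene, the predicted gene Gm28119 (3.95 ± 0.729 TPM after VB-127 and 1.013 ± 0.512 TPM in controls, named here after its values were seen), and 1648 genes, or 10.2%, had an unadjusted p under 0.05. Grm4 was at 17.7 ± 2.40 TPM after VB-127 against 14.5 ± 2.22 TPM in controls (SD, n = 6 each), a log2 difference of 0.28 (SE 0.13, 95% interval 0.0033 to 0.55, limma adjusted p 0.484). Its single-gene exact permutation test gave an unadjusted p of 0.0325, and it was the 1 of 6 genes with an unadjusted limma p under 0.05, where 9.67% of all tested genes were higher and 0.532% lower at that level. Grm7 was at 15.4 ± 2.89 TPM against 12.8 ± 2.94 TPM in controls, a log2 difference of 0.27 (95% interval -0.06 to 0.61, limma adjusted p 0.553). Grm3 was at 19.2 ± 3.67 TPM against 15.99 ± 2.83 TPM in controls, a log2 difference of 0.24 (95% interval -0.06 to 0.55, limma adjusted p 0.553). Without control replicate 4, Grm7 was at 0.14 and Grm3 at 0.15.

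The remaining genes lay close to controls after VB-127. Grm5 and Grm2 had log2 differences of 0.10 (95% interval -0.38 to 0.58) and 0.05 (95% interval -0.29 to 0.40), which were below 0 under median-ratio scaling and under quantile normalization, and limma adjusted p of 0.881 and 0.914. Grm8 differed by -0.02 (95% interval -0.35 to 0.31, limma adjusted p 0.969), a value whose sign depended on single libraries. Groups overlapped for all 6 genes, as for all but 0.669% of the genes tested. The median of the 6 differences was 0.17, beside 0.11 over all tested genes, of which 79.4% were above 0, and 3 of 6 receptor genes lay above that median. Median-ratio scaling, which removes such a shift of all genes, moved the median of all genes to 0.0078, Grm4 to 0.16 and Grm7 to 0.16 for VB-127 against controls. For vindeburnol against controls it left Grm4 at 0.24 and Grm7 at 0.29 with limma adjusted p of 0.51 and 0.527. The share of genes higher among those at an unadjusted p under 0.05 also moved with scaling. For vindeburnol against controls it was 85.1%, against 52.0% with median-ratio scaling, 47.7% with quantile normalization and 65.2% with Bc1 removed, and for VB-127 it was 94.8%, against 52.5%, 46.5% and 81.3%.

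**Figure D2:**
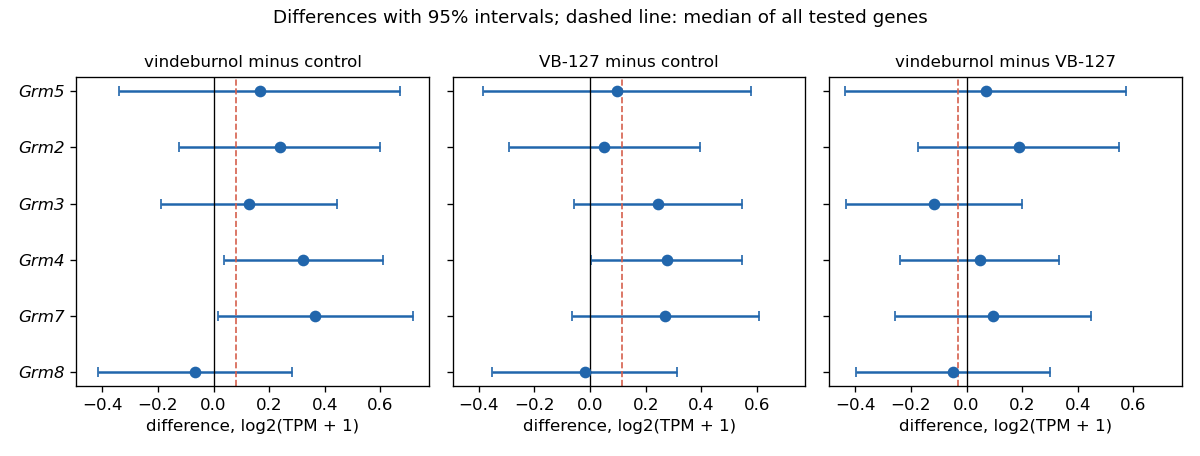
Difference on the log2(TPM + 1) scale (horizontal axis) for each receptor gene in the 3 comparisons, with 95% intervals from limma, a solid line at 0 and a dashed line at the median of all 16153 tested genes. Grm4 and Grm7 lie farthest to the right for vindeburnol minus control, at 0.32 and 0.37, and all intervals of vindeburnol minus VB-127 include 0.

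Vindeburnol and VB-127, given at the same dose and time, were compared directly in 1 pairing. None of the 6 receptor genes passed the test, limma called 0 of 16153 genes (0% called), and 546 genes, or 3.38%, had an unadjusted p under 0.05, none of them one of the 6 (0.891% of all genes higher and 2.49% lower). Of the 6, 4 were above 0, beside 38.9% of all genes, and the groups overlapped for all 6, as for all but 0.39% of the genes tested. The widest difference was that of Grm2, at 5.66 ± 1.53 TPM after vindeburnol (SD, n = 5) and 4.75 ± 0.605 TPM after VB-127 (SD, n = 6), a log2 difference of 0.19 (95% interval -0.17 to 0.55). Grm3 was lower in value after vindeburnol, by -0.12 (95% interval -0.43 to 0.20). Grm7, Grm5, Grm4 and Grm8 differed by 0.09 (95% interval -0.26 to 0.45), 0.07 (95% interval -0.44 to 0.57), 0.05 (95% interval -0.24 to 0.33) and -0.05 (95% interval -0.40 to 0.30). Each had a limma adjusted p of 0.9999, and the intervals leave room for differences in either direction, so they do not show that the compounds act alike. Array weights turned the Grm7, Grm5 and Grm4 values negative. Marker lists differed in this pairing too, with 0 called. Medians were -0.50 (dopaminergic, 0 of 7 above 0), -0.41 (noradrenergic), -0.40 (endothelium, 0 of 7) and 0.24 (Purkinje, 6 of 7), with the rest between. Their part in the receptor values was not tested. Of the genes at an unadjusted p under 0.05, 26.4% were higher after vindeburnol, and 45.0% with median-ratio scaling, 49.4% with quantile normalization and 29.4% with Bc1 removed.

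The summed level of the 6 receptor genes ran from 65.7 to 104.7 TPM after vindeburnol, from 58.6 to 99.5 TPM after VB-127 and from 47.6 to 86.3 TPM in controls. The lowest sum of the series, in control replicate 4, fell in the library where the short neuronal RNA Bc1, which encodes no protein, took the most of the TPM total (35.3%), and the highest, in vindeburnol replicate 2, where Bc1 took the least (16.1%). The Bc1 share averaged 21.4% ± 5.89 after vindeburnol (SD, n = 5), 21.04% ± 4.41 after VB-127 (SD, n = 6) and 24.5% ± 5.90 in controls (SD, n = 6). After centring each value on its group mean, Bc1 share and receptor level ran opposite in all 6 genes, with Pearson's r from -0.825 for Grm4 to -0.567 for Grm2 and Spearman's rho from -0.792 to -0.566 over 17 libraries. With permutation within groups and adjustment over 63 relations, 5 of 6 passed by each measure, with adjusted p from 0.00702 to 0.0664 for r and from 0.0123 to 0.0612 for rho, and Grm2 did not. Without control replicate 4 and vindeburnol replicate 3, the libraries farthest from the median Bc1 share, r ran from -0.827 to -0.534.

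**Figure D3:**
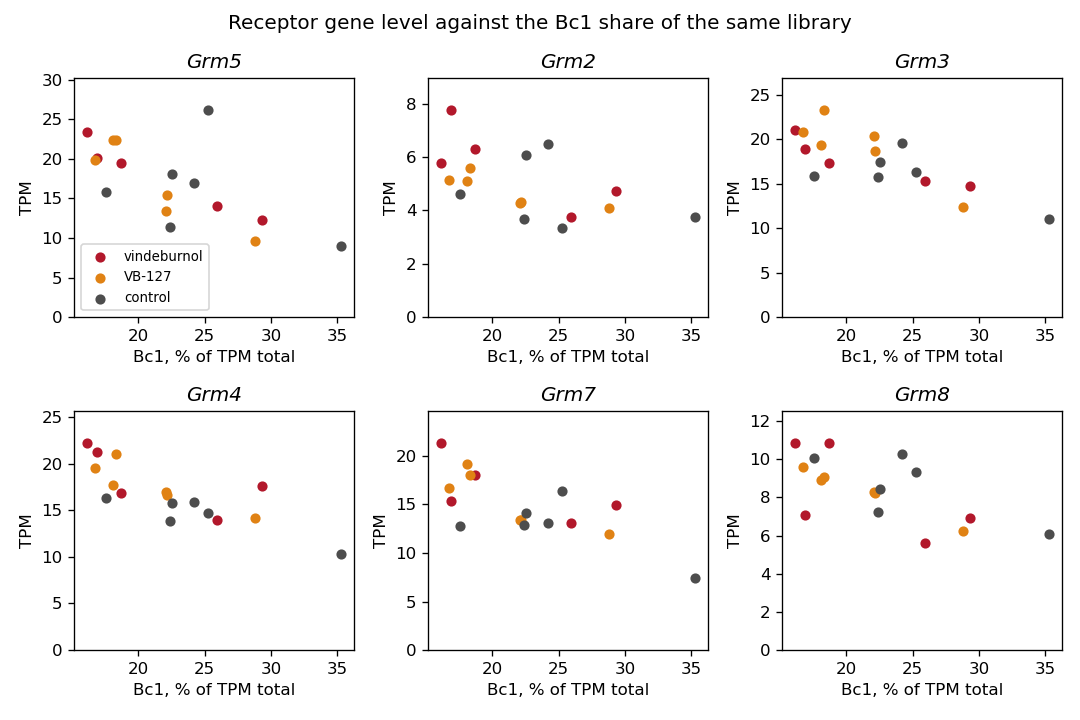
TPM of each receptor gene (vertical axis, starting at 0) against the percentage of the TPM total taken by Bc1 in the same library (horizontal axis), with colours for the 3 groups. All 6 genes tend to be lower where the Bc1 share is higher, and control replicate 4, at 35.3%, lies at the far right.

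That relation was shared by much of the transcriptome. Across 16152 tested genes other than Bc1 the median r with the Bc1 share was -0.482. Of them, 86.7% had an r below 0 and 48.2% an r below -0.5. TPM sums to a constant, so the share of Bc1 and the values of all other genes are tied by construction. The tests above, on values as deposited, thus cannot show a relation beyond that tie. With Bc1 removed and the rest rescaled to the same total, the receptor genes still had r from -0.606 to -0.306, of which 2 of 6 passed adjustment (Grm5 and Grm3, both with adjusted p = 0.0366, permutation test; by Spearman's rho Grm5 alone, adjusted p = 0.0461). Over all genes the median r with Bc1 removed was -0.119, and 19.5% of them had an r below -0.5. Without the same 2 libraries the r of Grm5 and Grm3 was -0.455 and -0.474. With median-ratio scaling r ran from -0.562 to -0.198 and 0 of 6 passed by Pearson's r and 1 of 6 by Spearman's rho. Over all genes the median r with that scaling was 2.5e-05, and 13.5% had an r below -0.5. The mean log2 level of 10 neuronal marker genes was 8.15 to 8.52 after vindeburnol, 8.14 to 8.48 after VB-127 and 7.83 to 8.54 in controls, lowest in control replicate 4. That of 9 astrocyte markers was 6.64 to 6.97, 6.64 to 7.05 and 6.49 to 7.07 in the same order. The part of tissue content in the library-to-library variation of the receptor genes was not tested. A fit took the mean level of the neuronal markers as a covariate. That mean is itself on the TPM scale and was lowest in control replicate 4, where Bc1 took 35.3%. The fit thus cannot separate neuronal content from the scale of a library. In it Grm4 and Grm7 had log2 differences of 0.25 and 0.25 for vindeburnol and 0.16 and 0.09 for VB-127. In the same fit Grm5, Grm3, Grm2 and Grm8 had log2 differences of 0.014, 0.035, 0.20 and -0.18 for vindeburnol, and Grm3 of 0.11 for VB-127.

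Most pairs of receptor genes varied together across the 17 libraries, as deposited and after centring on group means. Over 15 pairs Pearson's r ran from 0.372 to 0.878 with a median of 0.745, Spearman's rho from 0.387 to 0.8995, and 12 of 15 passed adjustment by each (permutation within groups, adjusted p from 0.00315 to 0.236 for r). The closest pair was Grm5 and Grm7 (r = 0.878, rho = 0.8995, and r = 0.833 without the 2 libraries farthest from the Grm5 median, permutation adjusted p = 0.00315), followed by Grm3 and Grm4 (r = 0.856, rho = 0.814, and r = 0.779 without the 2 farthest, permutation adjusted p = 0.00315). The 3 pairs that did not pass all held Grm2, with Grm5, Grm7 and Grm8. As deposited, the median r over 12252 compared genes ran from 0.295 with Grm2 to 0.489 with Grm3, so positive values were common. With Bc1 removed the median r of the 15 pairs was 0.575, and 9 passed by r and 7 by rho. With median-ratio scaling r ran from -0.012 to 0.785 with a median of 0.462, and 3 of 15 passed by r and 4 by rho.

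Genes whose pattern was most like that of each receptor, over the same 17 libraries and centred on group means, were named by their Pearson correlation among 12252 genes with a mean of at least 2 TPM. They are given as a description. For Grm5 these were the lipoprotein receptor gene Vldlr (r = 0.975), the NMDA receptor subunit gene Grin2a (r = 0.960) and the presynaptic liprin gene Ppfia2 (r = 0.958). For Grm7 they were the peptidase gene Trhde (r = 0.963), Gpatch2l (r = 0.958) and the bicarbonate transporter gene Slc4a10 (r = 0.952), and for Grm8 the endophilin gene Sh3gl2 (r = 0.966), Cyrib (r = 0.961) and the dehydrogenase gene Dld (r = 0.949). Grm4 was closest to Zmiz2 (r = 0.966), the imprinted non-coding gene Peg13 (r = 0.959) and Pitpnb (r = 0.954), and Grm3 to the transcription factor gene Bhlhe40 (r = 0.947), Fbxo34 (r = 0.946) and Fem1a (r = 0.941). Grm2 had looser neighbours, the complement protease gene Masp1 (r = 0.873), the lymphocyte surface gene Cd52 (r = 0.840) and the T-type calcium channel gene Cacna1i (r = 0.826). High values were common: 43.3% to 48.7% of the compared genes had an r above 0.5 with Grm5, Grm3, Grm4, Grm7 or Grm8, and 17.6% with Grm2.

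Each gene's share of the summed TPM of the 6 genes does not depend on the scale of a library. Grm8 made up 7.81% to 12.2% of the sum after vindeburnol, 9.13% to 10.8% after VB-127 and 10.6% to 13.4% in controls. It was below every control in 4 of 5 vindeburnol libraries, and also in VB-127 replicates 4, 5 and 6, at 9.13%, 10.5% and 9.63%. Grm7 made up 16.9% to 21.03% after vindeburnol, 17.5% to 20.7% after VB-127 and 15.6% to 19.9% in controls, and Grm4 19.04% to 24.7%, 19.1% to 24.2% and 17.03% to 21.7% in the same order. Grm3 had means of 20.9%, 23.2% and 22.2%, and Grm5 means of 20.99%, 20.4% and 21.8%, with overlapping ranges. These shares were not tested, because a share is a score over the chosen genes.

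**Figure D4:**
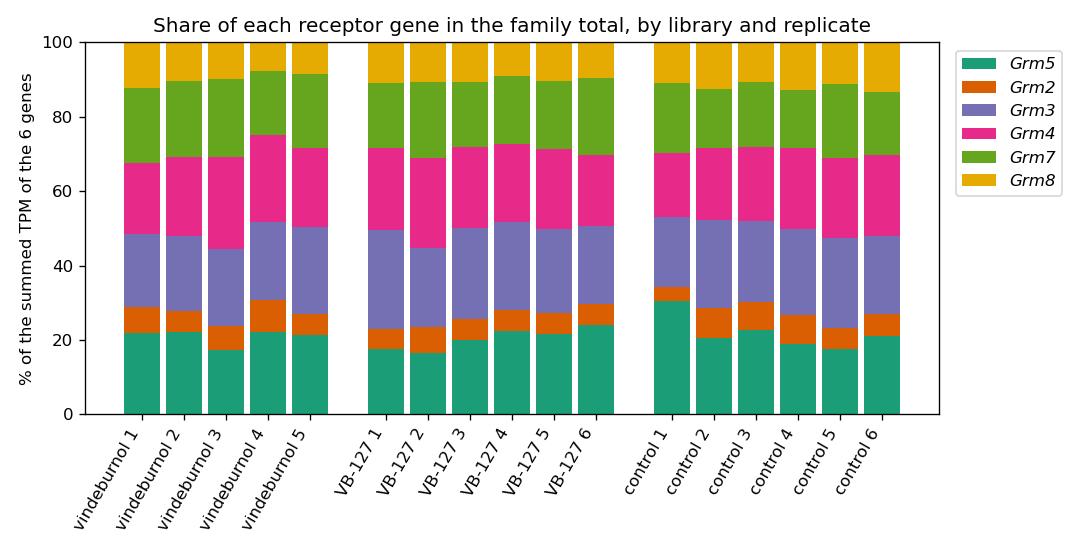
Percentage of the summed TPM of the 6 receptor genes taken by each gene (stacked bars, 0 to 100) in every library, with vindeburnol at the left, VB-127 in the middle and control at the right. The Grm8 segment at the top is thinnest in vindeburnol replicate 4, at 7.81%, and control replicate 1 stands out for its Grm5 segment of 30.4%.

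Genes that act with these receptors were read from 3 lists. Of 20 genes for group I signalling (Gq proteins, phospholipase C, protein kinase C, Homer and Shank scaffolds), all 20 were tested and 0 passed in either direction in any comparison by limma. After vindeburnol against controls 3 were higher and 0 lower at an unadjusted p under 0.05, and 16 of 20 were above 0 with a median log2 difference of 0.15, where 6.95% of all genes were higher at that p and 69.7% above 0, with a median of 0.08. After VB-127 against controls the counts were 3 higher, 0 lower and 18 above 0, with a median of 0.19, where 9.67% of all genes were higher at that p and 79.4% above 0, with a median of 0.11. The diacylglycerol kinase gene Dgkz, whose product removes the lipid second messenger of this pathway, was at 65.7 ± 8.87 TPM after vindeburnol and 70.1 ± 12.04 TPM after VB-127, against 51.2 ± 9.60 TPM in controls, log2 differences of 0.36 and 0.45 with limma adjusted p of 0.516 and 0.457. The G protein gene Gna11 was at 48.2 ± 3.92 TPM after vindeburnol and 47.1 ± 2.18 TPM after VB-127, against 40.6 ± 4.18 TPM in controls, with log2 differences of 0.24 and 0.21. The most abundant members were Ncdn, whose product norbin binds mGlu5, at a mean of 518 TPM, and the kinase gene Prkcb at 133 TPM; Ncdn had log2 differences from controls of 0.27 and 0.22 and Prkcb of 0.15 and 0.04. Between vindeburnol and VB-127 the scaffold genes Homer2 and Shank2 had the smallest p of the list, with log2 differences of -0.18 and -0.24 (limma adjusted p 0.9999 for both).

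Of 24 genes for group II and III signalling (Gi/o proteins, adenylyl cyclases, inwardly rectifying potassium channels and binding proteins), 23 were tested and 0 passed in any comparison. Their median log2 difference was 0.09 after vindeburnol and 0.12 after VB-127 against controls, beside 0.08 and 0.11 over all genes, with 20 and 22 of 23 above 0, beside 69.7% and 79.4% of all genes. At an unadjusted p under 0.05, 1 was higher after vindeburnol and 0 after VB-127, beside 6.95% and 9.67% of all genes. The adenylyl cyclase genes Adcy5 and Adcy2 had log2 differences of 0.26 and 0.24 after vindeburnol (limma adjusted p 0.55 and 0.625). The G protein genes Gnb1 and Gnao1, the most abundant of the list at means of 275 and 244 TPM, had log2 differences of 0.09 and 0.19 after vindeburnol and 0.14 and 0.10 after VB-127. The potassium channel gene Kcnj6 had a log2 difference of 0.41 after VB-127 (limma adjusted p 0.544). Between the compounds, Elfn1, whose product binds group III receptors across the synapse, was at 7.00 ± 2.69 TPM after vindeburnol and 11.4 ± 3.53 TPM after VB-127, a log2 difference of -0.65 (95% interval -1.29 to -0.01, limma adjusted p 0.9999). It was the 1 of 23 genes lower at an unadjusted p under 0.05, where 2.49% of all genes were. The G protein regulator gene Rgs8 came next, with a log2 difference of 0.25.

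Of 12 genes for receptor desensitisation and trafficking, all 12 were tested and 0 passed in any comparison. Their median log2 difference was 0.13 after vindeburnol and 0.11 after VB-127 against controls, beside 0.08 and 0.11 over all genes. In these comparisons 10 and 11 of 12 were above 0, beside 69.7% and 79.4% of all genes, and 2 in each were higher at an unadjusted p under 0.05, beside 6.95% and 9.67%. The arrestin gene Arrb2, which turns off activated receptors, was at 56.6 ± 5.80 TPM after vindeburnol and 49.5 ± 2.34 TPM after VB-127, against 44.1 ± 6.22 TPM in controls. Its log2 difference from controls was 0.36 after vindeburnol (95% interval 0.16 to 0.56, limma adjusted p 0.428). The receptor kinase gene Grk2 was at 108 ± 13.5 TPM after vindeburnol and 107.03 ± 8.48 TPM after VB-127, against 91.7 ± 8.66 TPM in controls, with log2 differences of 0.23 and 0.22. Grk6 had a log2 difference of 0.24 after VB-127 (limma adjusted p 0.47), and between vindeburnol and VB-127 Arrb2 differed by 0.18 and Grk5 by -0.15. The calmodulin genes Calm2 and Calm3, the most abundant of the list at means of 1192 and 999.4 TPM, had log2 differences of -0.03 and 0.10 after vindeburnol against controls; these genes encode the same protein, and their reads could be split by the counting.

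**Figure D5:**
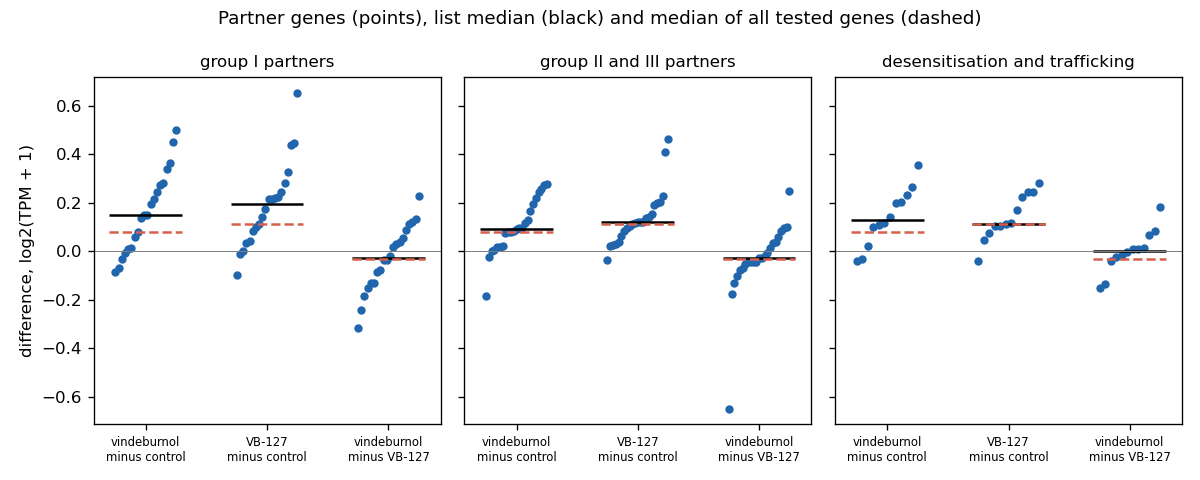
Difference on the log2(TPM + 1) scale (vertical axis) of each tested gene of the 3 partner lists in the 3 comparisons, with the list median in black and the median of all 16153 tested genes dashed. Against controls the median of the group I partners lies above the dashed line, at 0.15 beside 0.08 for vindeburnol. For VB-127 it is at 0.19 beside 0.11. The medians of the other lists lie nearer the dashed lines, for example at 0.09 beside 0.08 for group II and III partners after vindeburnol.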

How the data were processed

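RNA from tissue labelled locus coeruleus was measured in 5 vindeburnol, 6 VB-127 and 6 control libraries. The deposited values are TPM per gene, made by the authors with STAR and Salmon on GRCm39, per the submitters' processing notes; tool versions, annotation and use of strand in counting are not given in the sources used here. The labels' protocols name a directional poly(A) kit. A series table with the same values was not used here. Genes at 1 TPM in at least 5 libraries were tested on log2(TPM + 1) with limma 3.58.1 in R 4.3.3 (moderation with an intensity trend and robust hyperparameters), all 17 libraries and group as the only term, two-sided, with Benjamini-Hochberg adjustment; genes under 0.05 were called. The fit was also run on simulated data with noise drawn separately for each gene. That simulation held no shift shared within a library, so it does not measure error or power in these data. Correlations used 100000 permutations within groups.

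The genes and lists were chosen with earlier results of these data known. All 6 receptor genes were named, with the 3 most correlated genes of each (mean of at least 2 TPM, no predicted symbols) and, per partner list and comparison, the 2 genes with the smallest p and the 2 most abundant. Other genes were named after their values were seen. Alternatives covered the pseudocount, filter, scaling, moderation, a covariate, a replicate block and each library left out. Sequences are from RefSeq, GRCm38.p6.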

Additional observations from a re-analysis of the deposited data

How the results depend on the processing

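For vindeburnol against controls the count of called genes was 0, and it was 1 with a filter of 1 TPM in all libraries, with Bc1 removed, with array weights and without trend or robust moderation. With 1 library left out it stayed at 0. For VB-127 against controls it was 1. It was 0 with a pseudocount of 0.1, with no filter, with the stricter filter and with the neuronal covariate, 2 with only the groups compared and 3 with array weights. With 1 library left out it ran from 0 to 1, at 0 without VB-127 replicate 4, 5 or 6 or control replicate 4 or 5. For vindeburnol against VB-127 it was 0 under every alternative run. The replicate numbers did not pair the libraries: over 16 same-numbered pairs the correlation of deviations from group means ran from -0.195 to 0.111. With the replicate block the count for VB-127 against controls was 0.

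Of 558 alternative values for the 6 genes, 531 kept their direction and their side of the threshold, and the adjusted p of limma lay between 0.313 and 1. The exact permutation test of Grm4 for VB-127 against controls, which is not adjusted, gave p = 0.0325. The other 26 turned sign. For VB-127 against controls, Grm5 was -0.019, -0.038 and -0.13 under median-ratio scaling, quantile normalization and the neuronal covariate, and Grm2 was -0.051, -0.080 and -0.012, and -0.0031 with Bc1 removed. Array weights gave 0.013 for Grm8 there, and -0.12, -0.067 and -0.062 for Grm5, Grm4 and Grm7 for vindeburnol against VB-127, where the covariate gave 0.0050 for Grm8. An alternative chosen after seeing the data, without the library of highest Bc1 share in each group, gave -0.0012 for Grm4 in that comparison. With 1 library left out, Grm8 ran from -0.17 to 0.044 for vindeburnol against controls. In the VB-127 comparison with controls Grm5 ran from -0.046 to 0.24, Grm2 from -0.020 to 0.14 and Grm8 from -0.10 to 0.055. For vindeburnol against VB-127 Grm5 ran from -0.074 to 0.19, Grm4 from -0.023 to 0.14 and Grm8 from -0.15 to 0.063. The cause was not tested. Depth is unknown in TPM, so counting error could not be separated from the spread between libraries.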

Other observations

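The ratio of Grm7 to Grm8, taken within a library and so free of its scale, was chosen after the values were seen and was not tested. It was 1.66, 1.96, 2.16, 2.17 and 2.33 in vindeburnol replicates 1 to 5, from 1.62 to 2.15 with a median of 1.83 after VB-127, and from 1.22 to 1.78 with a median of 1.47 in controls. In 4 of 5 vindeburnol libraries and 3 of 6 VB-127 libraries it lay above every control.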
